A study of Mus musculus with 18 samples.

Results

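The 10 transcripts described here encode both ribosomal S6 kinases, S6K1 (Rps6kb1) and S6K2 (Rps6kb2), their substrates eIF4B, PDCD4, eEF2K and IRS1, the mTORC1 target 4E-BP1 (Eif4ebp1), and mTOR with raptor (Rptor) and rictor (Rictor), the scaffold proteins of mTORC1 and mTORC2. They were taken by name from the deposited gene counts, where all 10 had 1 identifier each among 55401 listed, and all 10 passed the filter on low counts in both series. RNA-seq was carried out on 18 cultures of mouse embryonic fibroblasts (MEFs), primary cells grown from mouse embryos, in 6 groups of 3 libraries. The S6K1 series comprised S6K1 WT cells carrying an empty vector (EV) or a retroviral vector for constitutively active HRAS (RAS), and S6K1 KO cells carrying RAS. The S6K1/S6K2 series comprised S6K1/S6K2 WT cells with EV or RAS and S6K1/S6K2 double knockout (DKO) cells with RAS. Every KO and DKO library carried RAS, so the effect of loss was read only in RAS cells. Per the methods of the study, S6K1 KO and WT cells came from littermate embryos, whereas the DKO cells came from crosses of mice already lacking S6K2 and their WT controls came from WT mothers of an earlier stage of that breeding.

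mTORC1 couples amino acid and growth factor supply to protein synthesis by phosphorylating the S6 kinases and the 4E-BPs. Active S6 kinases phosphorylate ribosomal protein S6 and eIF4B, mark PDCD4 for degradation, inhibit eEF2K and, through IRS1, dampen insulin signalling. Oncogenic RAS drives fibroblasts into senescence, a stable growth arrest in which mTORC1 is known to support the translation of secreted inflammatory factors. RNA-seq reads transcript levels of these proteins and not their phosphorylation, on which most of this regulation rests.

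Eef2k fell with RAS in both series, 1.84-fold and 1.86-fold. Mtor and Rptor were called higher with RAS in the S6K1/S6K2 series alone in the edgeR fit without a replicate block. With the replicate number as a block, which pairs each WT line with and without RAS, Mtor and Eif4ebp1 were called higher in both series. Rps6kb1 and Rictor were then called lower in the S6K1 series. These blocked fits called 36.2% and 28.7% of all genes in the S6K1 and S6K1/S6K2 series. With kinase loss Rps6kb2 fell 9.08-fold and Rps6kb1 2.15-fold in DKO cells. Rps6kb1 was 2.25-fold lower in KO cells, a difference that missed the threshold in the edgeR fit without the replicate block and passed it with the block and under DESeq2. None of the other 8 members passed with loss in these fits. Levels are given as CPM, read counts scaled to library size with TMM normalisation for library composition, and tests are those of edgeR with Benjamini-Hochberg adjustment over all genes and a threshold of 0.05.

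Libraries held 8319445 to 14402442 counts in total, and 3 counts, the limit that a count of 0 allows, stood at 0.208 to 0.361 CPM. Fibroblast markers (12 genes) summed to between 25390 and 64480 CPM in every library, and 6 and 7 of the 12 were called lower with RAS in the S6K1 and S6K1/S6K2 series. Macrophage markers (15 genes) were also present and uneven. Their summed level in replicates 1, 2 and 3 of the S6K1 series was 3391, 2567 and 682 CPM with EV, 3898, 3499 and 765 CPM in WT with RAS, and 901, 708 and 256 CPM in KO with RAS. For the S6K1/S6K2 series the sums were 1501, 164 and 216 CPM with EV, 1065, 182 and 264 CPM in WT with RAS, and 249, 75.4 and 100 CPM in DKO with RAS.

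Members were ordered against each other by CPM per kb of exon, the only scale on which levels of different genes are compared here. Eif4ebp1 and Eif4b stood highest in all 6 groups, with group means from 102 to 160 CPM per kb for Eif4ebp1 and from 99.4 to 152 CPM per kb for Eif4b. Libraries of these 2 genes overlapped in 5 of the 6 groups and were separate in WT RAS of the S6K1 series. Pdcd4, which encodes an inhibitor of the helicase eIF4A, ranked next in every group at 12.4 to 19.98 CPM per kb. The other 7 members lay between 1.16 and 12.9 CPM per kb, mostly with overlapping neighbours. Rptor was lowest in 4 groups, Rps6kb1 in KO RAS and Rps6kb2 in DKO RAS.

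**Figure D1:**
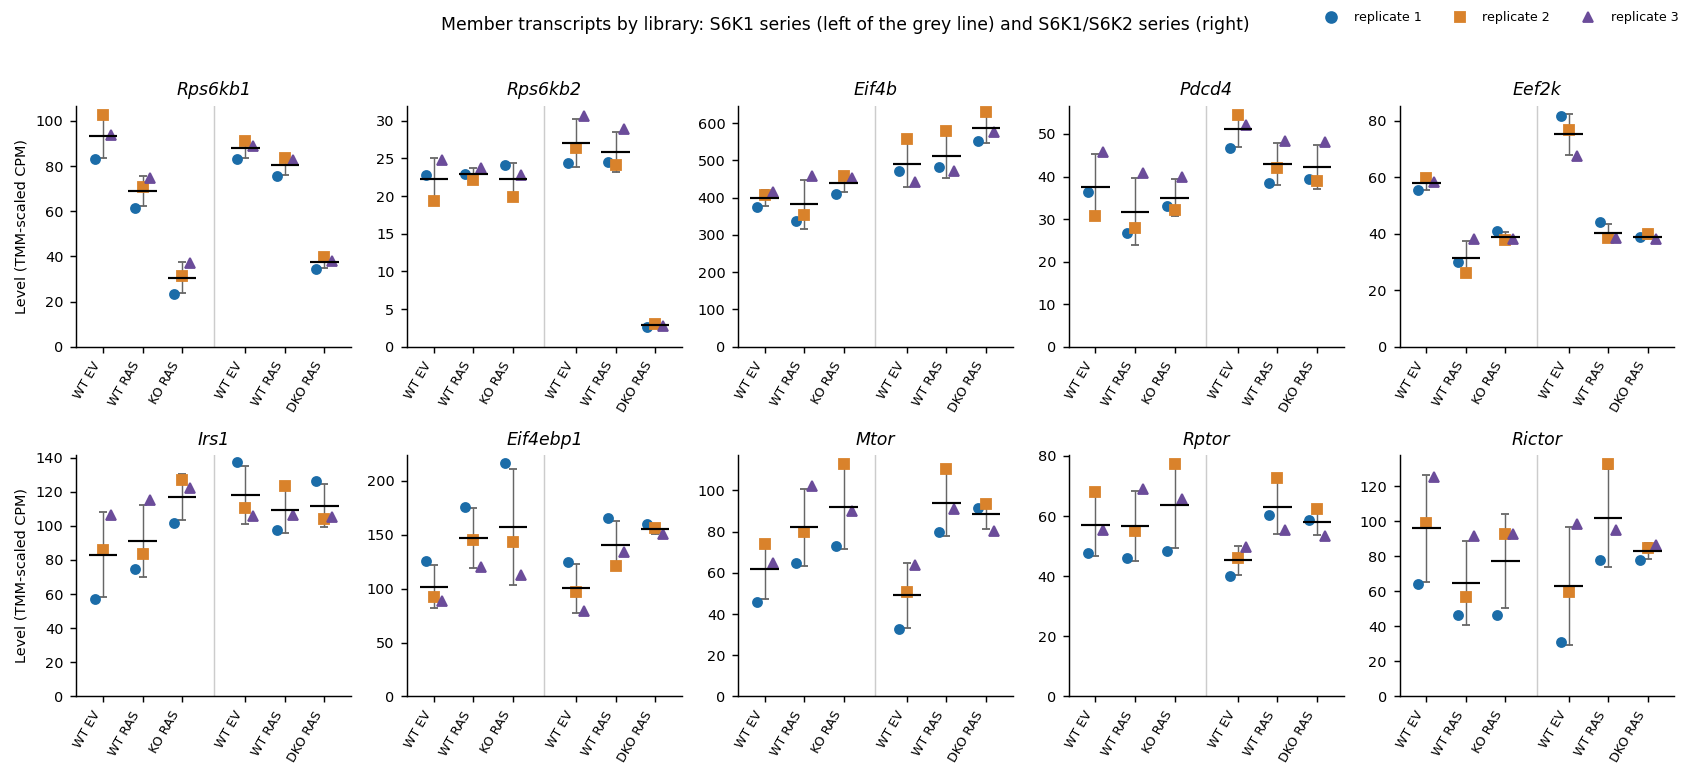
Level of each member in CPM (linear axis from 0) in the 18 libraries, with the S6K1 series left and the S6K1/S6K2 series right of the grey line; symbols mark replicate numbers, horizontal lines group means and vertical bars SD (n = 3). Eef2k dropped from EV to RAS in both series without overlap, and Rps6kb2 fell to 2.68 to 3.04 CPM in DKO RAS alone.

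The S6 kinase transcripts served as the check of the genotype labels. Rps6kb1 (ENSMUSG00000020516.15) spans chromosome 11, 86312373 to 86358307, minus strand (NCBIM37). Its exons overlap those of Rnft1 on the opposite strand, and whether the counting used strand is not given in the sources used here. For the S6K1 series the libraries gave 61.5, 70.9 and 74.6 CPM in WT RAS and 23.6, 31.3 and 37.0 CPM in KO RAS. No KO library reached the lowest WT library, yet each KO library still held at least 259 reads of the gene. The fold change was 2.25-fold lower (log2 -1.17, SE 0.17, 95% interval -1.56 to -0.79), with an edgeR adjusted p of 0.234, which missed the threshold. In that fit 1 of 14036 genes was called (0.00712%), and none was a member. With the replicate number as a block, 4.15% of genes were called and Rps6kb1 was the only member among them (log2 fold change -1.18, adjusted p 1.01e-04). That block pairs WT and KO cells by number, and the labels do not say that equal numbers share a litter. DESeq2 also called it (adjusted p 2.07e-06).

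Rps6kb1 fell in DKO RAS cells from 80.6 ± 4.45 to 37.5 ± 2.698 CPM (SD, n = 3), 2.15-fold (log2 -1.11, SE 0.11, adjusted p 0.00908). The drop in DKO and in KO differed by a log2 value of 0.09 (95% interval -0.33 to 0.51), which was not distinguishable from 0. Left out singly, 5 of the 6 WT RAS and DKO RAS libraries of this series lifted its adjusted p above the threshold, to values of 0.0701 to 0.116 in edgeR, with log2 fold changes of -1.05 to -1.16. Of these 6, only replicate 1 of WT RAS could be left out with the call kept. Which exons the targeted allele lacks is not given in the sources used here, and the counts are over the whole gene, so residual reads do not show whether an intact transcript was made.

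Rps6kb2 (ENSMUSG00000024830.17) spans chromosome 19, 4156706 to 4163354, minus strand. It was at 24.5, 24.1 and 28.9 CPM in WT RAS and at 2.68, 3.04 and 2.798 CPM in DKO RAS. These DKO libraries held 27 to 31 reads of the gene, above the limit of 3 counts. The transcript fell 9.08-fold (log2 -3.18, SE 0.17, adjusted p 7.44e-05), and it was 1 of 3 genes called among 13881 (0.0216%) in this comparison, as was Rps6kb1. Groups did not overlap for 2 members, Rps6kb1 and Rps6kb2, against 6.07% of all genes, and in the S6K1 series for Rps6kb1 alone, against 8.02%.

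No rise of the paralogous transcript was detected in S6K1 KO cells. Rps6kb2 was at 23.0, 22.2 and 23.7 CPM in WT RAS and 24.1, 19.9 and 22.8 CPM in KO RAS, overlapping throughout (log2 fold change -0.04, 95% interval -0.35 to 0.26). The interval leaves room for a rise of up to 0.26 on the log2 scale. The change of Rps6kb2 in DKO differed from that in KO by a log2 value of -3.11 (adjusted p 9.10e-07 in the fit over 18 libraries), 1 of 14483 genes called (0.0069%). Rps6kb2 is targeted in DKO cells and not in KO cells, so this difference was set by the design. It does not bear on a rise in KO cells.

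The balance between the kinases was read as the share of Rps6kb2 in the summed S6K transcript, each per kb of exon. Rps6kb1 is targeted in KO cells and both genes are targeted in DKO cells. Shares and sums in these cells therefore include residual reads of targeted genes and do not measure intact transcript. It was 54.1 ± 2.42% with RAS in S6K1 WT and 72.0 ± 5.49% in S6K1 KO cells, and 53.0 ± 2.47% in S6K1/S6K2 WT and 21.1 ± 0.494% in DKO cells (SD, n = 3). Summed S6K transcript was 17.3 ± 0.908 and 12.6 ± 0.937 CPM per kb in WT RAS and KO RAS, and 19.9 ± 1.34 and 5.49 ± 0.382 CPM per kb in WT RAS and DKO RAS. The shares did not overlap in either comparison, and the exact two-sided permutation test gave p = 0.1 in each (adjusted 0.133 over 4 comparisons), the smallest value that 3 against 3 libraries allow. Loss of reads from the targeted genes shifts the share by itself, so the test cannot show a change beyond the targeting. RAS itself went with a share of 45.8 ± 5.04% in EV against 54.1% in WT RAS of the S6K1 series (exact permutation p = 0.1) and of 52.1 ± 2.41% against 53.0% in the S6K1/S6K2 series (exact permutation p = 0.8). As shares of the raw reads, where the longer Rps6kb1 counts for more, single libraries of WT RAS gave Rps6kb2 22.3 to 27.2%, KO RAS 38.2 to 50.6% and DKO RAS 6.83 to 7.20%. The exact 95% binomial intervals of these DKO libraries spanned 4.69 to 10.3%.

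**Figure D2:**
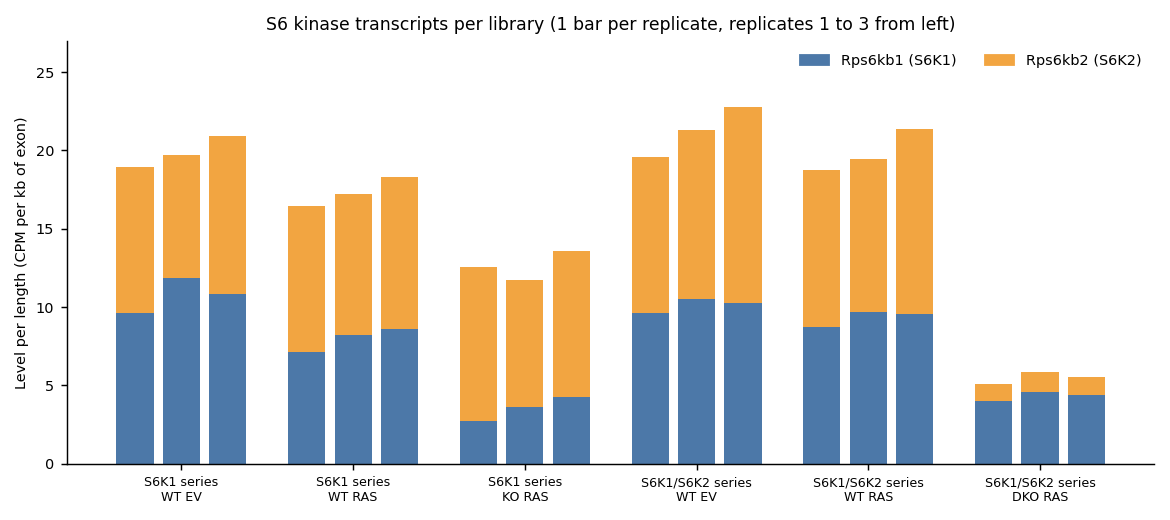
Summed level of Rps6kb1 (blue) and Rps6kb2 (orange) in CPM per kb of exon, 1 stacked bar per library. KO RAS bars keep their orange part and lose blue, with totals of 11.7 to 13.6, and DKO RAS bars lose both, with totals of 5.08 to 5.83. The blue part in KO RAS and both parts in DKO RAS are residual reads of targeted genes.

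Mean Rps6kb1 was also lower in WT cells with RAS than with EV, a change not called in either series in the edgeR fit without the replicate block. Its level in the S6K1 series went from 83.2, 102.5 and 93.6 CPM in EV to 61.5, 70.9 and 74.6 CPM in RAS, with no overlap (log2 fold change -0.43, SE 0.17, adjusted p 0.135). The change passed the threshold with the replicate block (adjusted p 0.00675). Libraries of the S6K1/S6K2 series overlapped, at 83.3, 91.1 and 89.0 CPM in EV and 75.5, 83.7 and 82.7 CPM in RAS (log2 fold change -0.12, 95% interval -0.36 to 0.11). Rps6kb2 showed log2 fold changes of 0.04 and -0.07 with RAS in the 2 series, neither past the threshold.

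Among the substrates, Eef2k carried the clearest response to RAS. It encodes the kinase that phosphorylates elongation factor eEF2 and slows translation elongation, and S6K phosphorylation inhibits it. Eef2k (ENSMUSG00000035064.17, chromosome 7 from 127986345 to 128050733, plus strand) was at 55.4, 59.8 and 58.4 CPM in EV and 29.97, 26.2 and 38.2 CPM in RAS of the S6K1 series. The other series gave 81.7, 76.6 and 67.4 CPM in EV and 44.1, 38.6 and 38.4 CPM in RAS. Every RAS library lay below every EV library of its series. Exons of Eef2k overlap those of another annotated gene on the same strand (ENSMUSG00000073853), and how reads in the overlap were assigned is not given in the sources used here. Eef2k fell 1.84-fold in the S6K1 series (log2 -0.88, SE 0.14, adjusted p 0.00391) and 1.86-fold in the S6K1/S6K2 series (log2 -0.90, SE 0.11, adjusted p 8.03e-04).

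Eef2k was the only member called with RAS in the S6K1 series, where 13.2% of all genes tested were called, and 1 of 3 members called in the S6K1/S6K2 series, where 26.3% were. Over every alternative tried its log2 fold change lay between -1.04 and -0.75 in the S6K1 series and between -0.97 and -0.84 in the S6K1/S6K2 series, called throughout. The RAS effects on Eef2k in the 2 series differed by -0.03 on the log2 scale (95% interval -0.38 to 0.33). No gene of 14483 was called for such a difference (0%), while 1819 had an unadjusted p under 0.05 in edgeR, and DESeq2 called 139.

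Loss of S6K1 or of both kinases was not accompanied by a called change of Eef2k. In KO RAS it was at 40.8, 37.6 and 38.1 CPM, with 2 of 3 libraries within the WT RAS range (log2 fold change 0.31, 95% interval -0.02 to 0.63, adjusted p 0.770). Its level in DKO RAS was 38.8, 39.7 and 38.2 CPM against 40.3 ± 3.24 CPM in WT RAS (log2 fold change -0.05, 95% interval -0.31 to 0.20).

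RefSeq (GRCm38.p6) lists 3 start sites for Eef2k and 1 each for Mtor and Rptor. The 120 bases before the start are shown for these 3 genes because they were the members called with RAS, with Eef2k at its most upstream start. Capitals mark matches on either strand to an E-box (CACGTG), AP-1 (TGANTCA), ETS (CCGGAA) or GC box (GGGCGG) motif.
Eef2k, chr7:120842711-120842830, plus strand: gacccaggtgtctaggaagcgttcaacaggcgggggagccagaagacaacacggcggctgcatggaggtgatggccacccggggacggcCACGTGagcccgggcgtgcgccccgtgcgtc
Mtor, chr4:148448462-148448581, plus strand: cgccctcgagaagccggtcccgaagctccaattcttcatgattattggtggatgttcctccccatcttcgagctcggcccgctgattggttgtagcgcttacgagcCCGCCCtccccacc
Rptor, chr11:119602785-119602904, plus strand: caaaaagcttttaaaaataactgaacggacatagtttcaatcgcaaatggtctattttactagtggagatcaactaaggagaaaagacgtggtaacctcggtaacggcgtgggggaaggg

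The capitals in Eef2k are an E-box and those in Mtor a GC box read from the other strand, and the Rptor stretch held no match. In windows of 300 bases, from 250 before to 50 after the start, an E-box was found in 2 of the 8 members with a listed promoter (Eef2k and Irs1), an ETS motif in 3 (Irs1, Mtor and Rictor), a GC box in 6 and AP-1 in 0. Of all 32851 windows of that length, 7.15% held an E-box, 14.9% the ETS motif, 35.7% a GC box and 7.81% AP-1. A member was counted if any of its start sites had a match. Members with several start sites therefore had more chances than a single window, and the 2 measures are not alike. These matches describe the letters only.

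None of the other substrates was called with RAS. Eif4b (ENSMUSG00000058655.9), a cofactor of the eIF4A helicase, was at 375.7, 407.1 and 415.5 CPM in EV and 336.5, 354.2 and 458.1 CPM in RAS of the S6K1 series, with overlap (log2 fold change -0.06, 95% interval -0.37 to 0.24). For the S6K1/S6K2 series its log2 fold change was 0.06 (95% interval -0.26 to 0.38). Pdcd4 (ENSMUSG00000024975.13) was lower with RAS within each of the 3 numbered pairs of both series, by log2 fold changes of -0.24 (95% interval -0.70 to 0.22) and -0.25 (95% interval -0.55 to 0.05), neither past the threshold. Irs1 (ENSMUSG00000055980.2), the insulin receptor substrate, ranged from 56.9 to 106.5 CPM in EV and from 74.4 to 114.9 CPM in RAS of the S6K1 series (log2 fold change 0.13, 95% interval -0.40 to 0.66). Its log2 fold change in the S6K1/S6K2 series was -0.11 (95% interval -0.44 to 0.21).

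With S6K1 loss, all 4 substrates had log2 fold changes above 0 that did not pass the threshold. Between the numbered pairs of KO and WT RAS, Eif4b, Pdcd4 and Eef2k were higher in KO in replicates 1 and 2 and at log2 ratios of -0.012, -0.026 and -0.0029 in replicate 3. Irs1 was higher in all 3 pairs, by log2 ratios of 0.45, 0.60 and 0.09. Fitted log2 fold changes were 0.20 for Eif4b (95% interval -0.10 to 0.51), 0.14 for Pdcd4 (95% interval -0.32 to 0.60) and 0.36 for Irs1 (95% interval -0.17 to 0.90). All genes tested had a median of 0.03 and quartiles of -0.11 and 0.16 in this comparison. The share of all genes above 0 was not counted, so the signs of the substrates are given without a reading. All 15 macrophage markers were lower in KO RAS (median log2 fold change -2.21, 15 with an unadjusted p under 0.05 and none called in edgeR), and their part in the member values was not tested. Without replicate 1 of every group, an alternative chosen after seeing the data, these 4 log2 fold changes were 0.15, 0.06, 0.31 and 0.22 for Eif4b, Pdcd4, Irs1 and Eef2k.

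In the DKO comparison Eif4b was higher in each numbered pair, at 553.4, 631.2 and 577.2 CPM in DKO RAS and 481.3, 578.5 and 473.0 CPM in WT RAS, with overlapping groups (log2 fold change 0.20, 95% interval -0.12 to 0.52, adjusted p 1.00). Pdcd4 had a log2 fold change of -0.03 (95% interval -0.33 to 0.28) and Irs1 one of 0.04 (95% interval -0.29 to 0.36). The 14 macrophage markers tested were all lower in DKO RAS (median -1.99, 1 with an unadjusted p under 0.05 and none called), and their part here was not tested either. In bulk RNA, fewer cells of a type and less RNA per cell cannot be told apart.

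Eif4ebp1 (ENSMUSG00000031490.6), whose product 4E-BP1 binds eIF4E and blocks cap-dependent initiation until mTORC1 phosphorylates it, was higher with RAS in every numbered pair. It was at 125.2, 92.0 and 88.6 CPM in EV and 175.4, 145.3 and 120.3 CPM in RAS of the S6K1 series. It was at 124.9, 96.5 and 79.5 CPM in EV and 165.1, 120.9 and 134.2 CPM in RAS of the S6K1/S6K2 series. The groups overlapped in both series, with replicate 1 of EV above the lowest RAS library in each. The log2 fold changes were 0.53 (SE 0.25, adjusted p 0.220) and 0.48 (SE 0.17, adjusted p 0.0683). With the replicate block, here the same WT line with and without RAS, both passed the threshold in edgeR (adjusted p 0.00260 and 0.0330), against 36.2% and 28.7% of all genes called in those fits. DESeq2 called Eif4ebp1 in the S6K1/S6K2 series (adjusted p 0.0443) and not in the S6K1 series (adjusted p 0.223).

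With kinase loss Eif4ebp1 gave values of 216.6, 143.2 and 112.2 CPM in KO RAS, the widest spread of any of its groups, and 159.6, 155.9 and 150.3 CPM in DKO RAS. The log2 fold changes were 0.10 (95% interval -0.47 to 0.66) and 0.15 (95% interval -0.24 to 0.54).

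Mtor (ENSMUSG00000028991.15, chromosome 4 from 147822720 to 147931792, plus strand), the kinase of both complexes, rose with RAS in the S6K1/S6K2 series from 32.6, 50.8 and 63.7 CPM to 79.6, 110.6 and 91.0 CPM. The groups did not overlap, and Mtor was 1.91-fold higher (log2 0.94, SE 0.22, adjusted p 0.0138). Without replicate 2 of WT RAS the log2 fold change was 0.80 and the adjusted p 0.0589. Its S6K1 series values were 46.1, 74.2 and 64.8 CPM in EV and 64.6, 79.7 and 102.0 CPM in RAS, higher in 3 of 3 pairs with overlapping groups (log2 0.41, SE 0.23, adjusted p 0.305, and 0.0215 with the replicate block). The RAS effects of the 2 series differed by 0.51 (95% interval -0.21 to 1.24, adjusted p 0.519).

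Rptor (ENSMUSG00000025583.15, chromosome 11 from 119464219 to 119760890, plus strand), the subunit that recruits mTORC1 substrates, rose in the S6K1/S6K2 series from 40.1, 46.0 and 49.6 CPM to 60.5, 72.6 and 55.5 CPM, again without overlap. The log2 fold change was 0.47 (SE 0.14, adjusted p 0.0304). Leaving out replicate 1 or replicate 2 of WT EV, or replicate 2 of WT RAS, gave adjusted p-values of 0.0851, 0.0827 and 0.112. Rptor in the S6K1 series was at 47.8, 68.0 and 55.4 CPM in EV and 46.0, 55.1 and 69.1 CPM in RAS (log2 -0.01, 95% interval -0.49 to 0.47). Groups did not overlap for 3 members in the S6K1/S6K2 series (Mtor and Rptor higher, Eef2k lower), where this held for 42.5% of all genes, and for 2 in the S6K1 series (Rps6kb1 and Eef2k, both lower), where it held for 30.9%.

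Rictor (ENSMUSG00000050310.9), the scaffold of mTORC2 and itself an S6K1 substrate, gave values of opposite sign in the 2 series. It was lower with RAS in all 3 pairs of the S6K1 series, going from 64.1, 98.9 and 125.0 CPM to 46.3, 56.6 and 91.8 CPM (log2 -0.56, SE 0.35, adjusted p 0.354, and 0.00712 with the replicate block). The S6K1/S6K2 series went from 31.2, 59.3 and 98.3 CPM to 77.7, 132.4 and 94.98 CPM, higher in replicates 1 and 2 and level in replicate 3 (log2 0.69, SE 0.34, adjusted p 0.163). The difference between these effects was 1.25 (95% interval 0.12 to 2.38) with an unadjusted p of 0.0325 in edgeR and an adjusted p of 0.366, so it did not pass over all genes. Within each EV group Rictor spread over a wide range, with an SD of 30.5 CPM around 96.0 and of 33.7 CPM around 63.0.

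Neither Mtor, Rptor nor Rictor was called with kinase loss. Their log2 fold changes in KO RAS were 0.16 (95% interval -0.36 to 0.69), 0.17 (95% interval -0.31 to 0.65) and 0.25 (95% interval -0.54 to 1.04). In DKO RAS they were -0.08 (95% interval -0.57 to 0.41), -0.11 (95% interval -0.42 to 0.19) and -0.29 (95% interval -1.06 to 0.47).

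**Figure D3:**
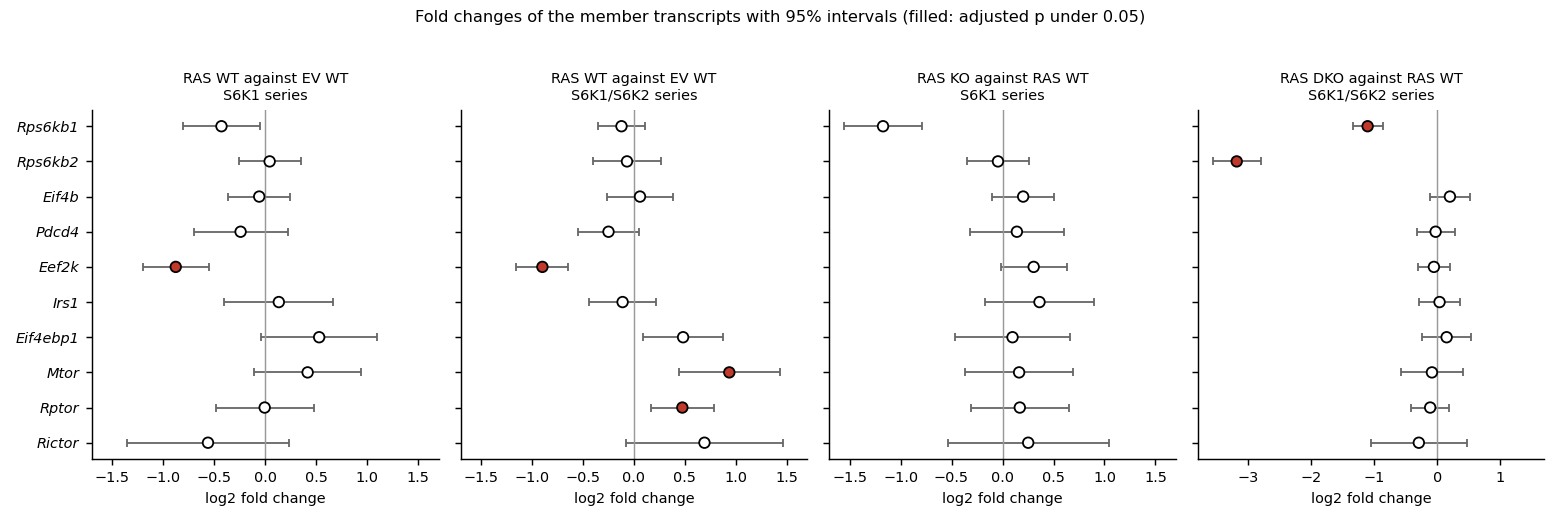
Log2 fold change (horizontal axis) of each member in the 4 comparisons, with 95% intervals from the edgeR fits of 9 libraries; filled points have an adjusted p under 0.05. Eef2k was filled on the negative side in both RAS comparisons, Mtor and Rptor on the positive side in the S6K1/S6K2 series, and only Rps6kb1 and Rps6kb2 in the DKO comparison, whose axis is wider.

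The pathway around the members was followed in 89 further genes of 7 lists, of which 84 were tested. With RAS, 4 were called higher and 2 lower in the S6K1 series, and 7 higher and 11 lower in the S6K1/S6K2 series, so 6 of 84 and 18 of 84 against the 13.2% and 26.3% of all genes. With the replicate block the S6K1 series gave 11 higher and 18 lower and the S6K1/S6K2 series 8 higher and 12 lower, in fits that called 36.2% and 28.7% of all genes. The median log2 fold change over the 84 was -0.09 and -0.05, beside 0.00 and -0.02 over all genes.

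Rps6ka2, which encodes the ERK-activated kinase RSK3, was the highest in both series. It went from 26.5, 34.4 and 20.8 CPM to 78.03, 110.4 and 98.5 CPM in the S6K1 series (log2 1.81, SE 0.25, adjusted p 0.00196). Rps6ka2 went from 8.03, 7.34 and 15.7 CPM to 52.7, 56.6 and 44.9 CPM in the S6K1/S6K2 series (log2 2.31, SE 0.34, adjusted p 0.00160). The related Rps6ka6 was called in the S6K1 series alone (log2 0.95, adjusted p 0.0306), and Sgk1, an mTORC2-dependent kinase, in the S6K1/S6K2 series alone (log2 0.95, adjusted p 0.0215). For neither was the difference between series called (adjusted p 0.452 for Sgk1).

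Of the PI3K input, Pik3cb, the p110-beta catalytic subunit, rose in both series (log2 0.80, adjusted p 0.0406, and log2 1.96, adjusted p 3.75e-04). Grb10, an mTORC1 substrate that restrains insulin signalling, fell in both, from 869.4, 1088 and 1092 CPM to 420.5, 471.8 and 558.7 CPM (log2 -1.07, adjusted p 0.00305) and from 950.2, 830.6 and 979.9 CPM to 507.9, 464.4 and 486.3 CPM (log2 -0.92, adjusted p 0.00132).

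Of the amino acid sensing arm, Rragd, a Rag GTPase that places mTORC1 at the lysosome, rose in both series (log2 0.82, adjusted p 0.00193, and log2 1.56, adjusted p 0.00267). Its relative Rragb fell in the S6K1/S6K2 series from 13.6, 10.9 and 6.56 CPM to 1.08, 1.79 and 0.741 CPM (log2 -3.11, SE 0.43, adjusted p 0.00118). Rragb in the S6K1 series had a log2 fold change of -2.17 with an adjusted p of 0.0812, and of 0.00254 with the replicate block. Means there were 2.12 ± 0.866 CPM in EV and 0.459 ± 0.514 CPM in RAS (SD, n = 3), the latter near the limit of 3 counts. The lowest of these RAS libraries held 1 read of the gene. Deptor, an inhibitor bound to mTOR, fell in the S6K1/S6K2 series from 73.2, 42.9 and 14.5 CPM to 8.75, 8.46 and 9.08 CPM (log2 -2.31, adjusted p 0.00621). Tfeb, the lysosomal transcription factor held in the cytoplasm by mTORC1, and Sesn1, a sestrin, fell as well (log2 -1.25 and -1.18, adjusted p 0.0160 and 0.00931).

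With kinase loss none of the 84 genes was called in either comparison (1 with an unadjusted p under 0.05 in edgeR in each). The median log2 fold change was 0.08 in KO RAS, beside 0.03 over all genes (quartiles -0.11 and 0.16). In DKO RAS the median was 0.03 beside 0.00. With the replicate block 1 gene, Pik3cd, was called lower in KO RAS, in a fit that called 4.15% of all genes, at 5.37, 7.51 and 5.75 CPM against 12.46, 12.7 and 7.47 CPM (adjusted p 0.0342). Pik3cd encodes the leukocyte-enriched p110-delta, and the part of the macrophage markers, lower in the same comparison, was not tested.

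**Figure D4:**
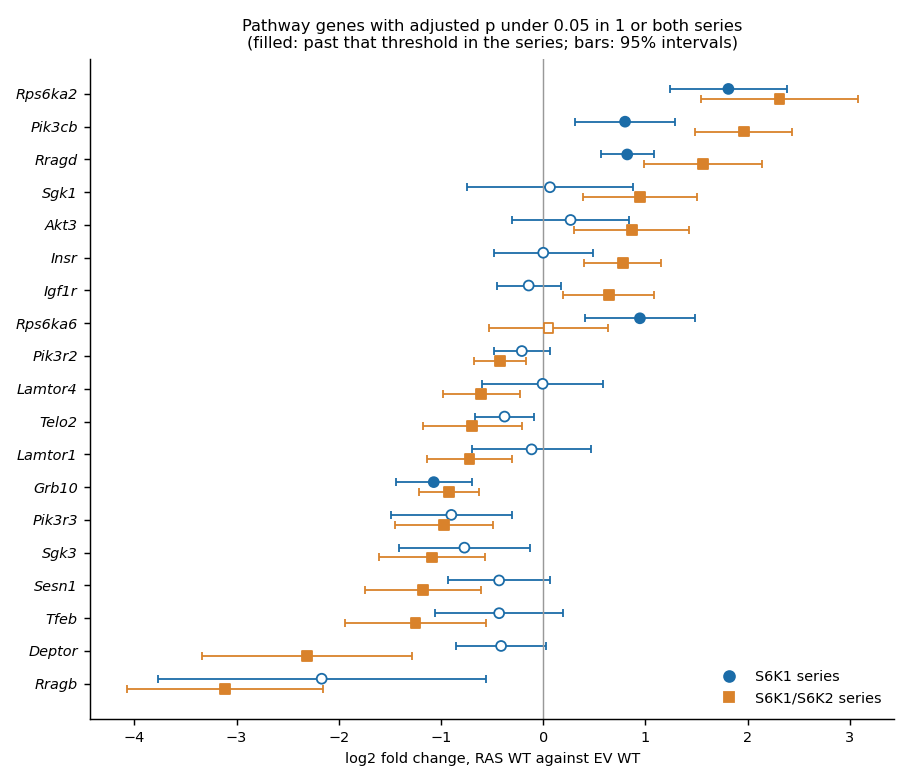
Log2 fold change with RAS (horizontal axis) of 19 of the 20 pathway genes called in 1 or both series, with 95% intervals; circles stand for the S6K1 series, squares for the S6K1/S6K2 series, and filled symbols have an adjusted p under 0.05. Rps6ka2, Pik3cb, Rragd and Grb10 were called in both.

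The genes whose levels followed Rps6kb1 most closely over the 18 libraries, by root mean square difference of centred log2 CPM, were 4632419I22Rik, Acaca and Mks1 (0.29, 0.32 and 0.33, where Rps6kb1 itself had an SD of 0.64). By the NCBIM37 annotation all lie on chromosome 11, as does Rps6kb1, at 86014872 to 86117945 (4632419I22Rik), 83943174 to 84215153 (Acaca) and 87666717 to 87677305 (Mks1). 4632419I22Rik had S6K1 series means of 83.6 CPM with EV, 73.8 CPM with RAS and 47.3 CPM in KO cells, and S6K1/S6K2 series means of 95.4, 76.1 and 47.6 CPM in the same order with DKO cells last. The closest genes to Rps6kb2, H2-DMb1, Mylk3 and Rnf135, differed from it by 0.81 to 0.82, against its own SD of 1.14. Group means were 0.130 to 0.878 CPM for Mylk3, around the limit of 3 counts, 0.657 to 3.66 CPM for H2-DMb1 and 2.89 to 9.44 CPM for Rnf135.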

How the data were processed

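Single-end reads of stranded mRNA libraries were counted per gene, and the authors deposited these raw counts with 1 column per library. The methods of the study name the mm9 genome, TopHat and HTSeq, whereas the submitters' processing notes name mm10, STAR 2.7.1a, CASAVA and DESeq2 1.28.1, so the build behind the counts is not settled. Gene positions and exon lengths are from the GENCODE annotation of NCBIM37 (mm9), matched by identifier. They describe the genes and not the read counting. Exons of Rps6kb1, Rps6kb2, Pdcd4, Eef2k, Irs1 and Rptor overlap annotated genes on the opposite strand, and those of Eef2k also 1 on the same strand (ENSMUSG00000073853). The strand setting of the counting is not given.

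Counts were analysed with edgeR 4.0.16 in R 4.3.3 (filterByExpr with a minimum count of 10, TMM, quasi-likelihood F test, two-sided). Each series was fitted over its 9 libraries with group as the term, and differences between series over all 18. SE is the log2 fold change divided by the square root of F. DESeq2 1.42.0, other scalings and filters, leaving out each library and the replicate number as a block were alternatives. The block pairs WT EV with WT RAS by the line number in the labels, and WT with KO by the same number. Per the methods WT and KO cells came from the same mothers, but the labels do not tie the numbers to litters. Same-numbered deviations correlated at 0.393 to 0.692 in the S6K1 series and 0.293 to 0.366 between WT EV and WT RAS of the S6K1/S6K2 series. DKO and WT cells had no shared litters and were not treated as paired. Replicates of a group differed beyond sampling noise (lowest chi-square per degree of freedom 8.62). Scripts were tested on simulated data.

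Members, lists and tests were chosen with earlier results of these data known. By the rule for names, the text gives all members, up to 4 called pathway genes at either end of each comparison, and the 3 genes closest to each S6 kinase. One called pathway gene is counted but not reported here by name. Of 89 pathway genes 88 had an identifier. Marker lists for fibroblasts, macrophages, endothelial, epithelial, muscle and neural cells were read as sums. Binomial intervals and the limit of 3 counts cover counting error only.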

Additional observations from a re-analysis of the deposited data

Results flagged for a closer look

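The loss effect on Rps6kb2 differed between the S6K1/S6K2 series and the S6K1 series by a log2 value of -3.11 (95% interval -3.54 to -2.68, adjusted p 9.10e-07 in edgeR over 18 libraries), lower in 3 of 3 DKO RAS libraries. It was picked up because the test of the difference itself passed the threshold. The gene is targeted in DKO cells and not in KO cells, so a difference was set by the design.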

How the results depend on the processing

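With the replicate block, members called with RAS went from 1 to 5 in the S6K1 series (Rps6kb1, Eef2k, Eif4ebp1, Mtor and Rictor) and were 4 in the S6K1/S6K2 series. Over all genes these blocked fits called 36.2% and 28.7%, against 13.2% and 26.3% without the block. Members called in KO RAS went from 0 to 1 under DESeq2, no filter, the replicate block and 1 fit of 18 libraries, where the Rps6kb1 log2 fold changes were -1.18, -1.17, -1.18 and -1.19. In DKO RAS, not treated as paired, the block gave 2 members and Rps6kb1 at -1.11 (adjusted p 0.0131), and same-numbered deviations correlated at 0.279, 0.454 and -0.04. Leaving out 1 library gave 1 to 3 members with RAS in the S6K1/S6K2 series and 1 to 2 in DKO RAS, where Rps6kb1 lay between -1.05 and -1.16. The cause of these shifts was not tested. Rptor with RAS in the S6K1/S6K2 series missed the threshold without the filter, in the fit of 18 libraries and in that of the 6 compared libraries (adjusted p 0.0527, 0.0609 and 0.0566), and without replicate 1 of every group (0.0816). Values near 0 changed sign when 1 library was left out. With RAS in the S6K1 series these were Rps6kb2 (-0.0458 to 0.119), Eif4b (-0.21 to 0.0248), Irs1 (-0.0926 to 0.347) and Rptor (-0.173 to 0.142, with 7.03e-04 without the filter and 0.00552 over 18 libraries). With RAS in the S6K1/S6K2 series they were Rps6kb2 (-0.155 to 0.0403), Eif4b (-0.0348 to 0.168), Irs1 (-0.204 to 0.009996) and the Rps6kb2 share (-0.167 to 2.34 points). In KO RAS they were Rps6kb2 (-0.115 to 0.0330), Eif4ebp1 (-0.214 to 0.292) and Mtor (-0.0121 to 0.351). In DKO RAS they were Pdcd4 (-0.132 to 0.06998), Eef2k (-0.0879 to 0.0158), Irs1 (-0.0594 to 0.135), Mtor (-0.189 to 0.0527) and Rptor (-0.195 to 0.00556). Between series they were Eef2k with RAS (-0.137 to 0.119) and Rps6kb1 with loss (-0.0626 to 0.247). Without replicate 1 of every group, chosen after seeing the data because it had the most macrophage signal in all 6 groups, sign changes were seen for Rptor with RAS in the S6K1 series (0.0179), Irs1 with RAS in the S6K1/S6K2 series (0.08998), Eif4ebp1 in KO RAS (-0.0751), Eef2k and Irs1 in DKO RAS (0.0121 and -0.138) and the series difference of Rps6kb1 loss (-0.00137). Over all genes, calls ranged from 932 to 5085 with RAS in the S6K1 series, 2050 to 3980 in the S6K1/S6K2 series, 0 to 583 in KO RAS, 1 to 11 in DKO RAS and 0 to 290 for the difference in RAS effect. Depth limits Rps6kb2 in DKO RAS, at 27 to 31 reads.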

Other observations

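Epithelial markers (7 genes) rose with RAS in both series, with 4 of 5 and 5 of 5 tested genes called higher, and their summed level went from 8.05 to 18.4 CPM in EV to 145 to 175 CPM in WT RAS. Over the 18 libraries Krt18 held 14767 reads, Krt19 4092, Cldn4 2335 and Krt8 543. Epcam, Cdh1 and Esrp1 held only 178, 91 and 1. Of the other lists, endothelial markers gave 2 called higher in the S6K1 series and 2 higher and 1 lower in the S6K1/S6K2 series, muscle markers 1 higher in each, and neural markers 1 higher and 2 lower in the S6K1 series and 3 higher in the S6K1/S6K2 series. Myod1 and Myf5, which define muscle precursors, were at 0. None of these lists had a called gene with kinase loss.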
